A study of Rattus norvegicus with 6 samples.

Results

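Cdkn1a, Gadd45a, Gadd45b, Gadd45g, Mdm2, Plk2, Ccng1, Sesn1 and Sesn2 are 9 genes that the tumour suppressor p53 and related stress signals are known to switch on, and they were followed here in the hippocampus of aged rats 3 h after sevoflurane anesthesia. They are 9 of the 22093 genes that the array measured with a probe set of their own. A probe set, the group of probes that together read one transcript, was taken for a gene where its annotation named that gene alone, and among several it was chosen by its highest mean over the 6 arrays. Each of the 9 genes had exactly 1 such probe set, so that this choice removed none. The set of genes was proposed with earlier results of these data known, and the p-values given for its members describe these arrays and are no independent evidence.

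Male Sprague-Dawley rats aged 18 months breathed either 2.5% sevoflurane, a volatile general anesthetic, in 100% oxygen or 100% oxygen alone for 4 h. Rectal temperature was held near 37 °C in both groups, so both shared the oxygen, the chamber and the warming. Hippocampal RNA of 3 sevoflurane rats and 3 control rats was hybridised to 6 one-colour Clariom D Pico arrays, and each value is a normalized log2 expression level. The labels do not state which side or which part of the hippocampus was dissected. All 18 measured markers of hippocampal neurons, and all 9 genes, were brighter on each of the 6 arrays than the middle value of its 23 background controls, the 9 genes by at least 2.28 on the log2 scale.

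The arrays differed in ways that the treatment does not name. Sevoflurane replicate 1 had the lowest mean correlation with the other arrays (r = 0.9857, against 0.9908 to 0.9931 for the others). Its values had the narrowest spread (SD 1.848, against 1.927 to 2.026), the highest median (5.764) and the highest middle value of the background controls (3.957). Control replicate 1 had the widest spread (SD 2.026) and the lowest background value (3.463), so these extremes lay in opposite groups. Control replicate 1 was the lowest array for 5 of the followed genes, among them Cdkn1a and Gadd45a, and the highest for 3. Sevoflurane replicate 1 was the lowest for 3 and the highest for 2. Precision is limited by having 3 arrays per group, since an exact permutation test of 3 against 3 arrays cannot give a p below 0.1.

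In the textbook pathway, DNA damage or another stress stabilises p53, which binds paired ten-base motifs near its target genes. Its target Cdkn1a makes p21, which blocks cyclin-dependent kinases and so the cell cycle, while Mdm2 and Ccng1 feed back on p53 itself. The Gadd45 proteins act in DNA repair, DNA demethylation and p38 and JNK kinase signaling, and the sestrins restrain the growth kinase mTORC1. In neurons, which have left the cell cycle, several of these genes also answer to synaptic activity, glucocorticoids or FoxO factors.

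The 250 bases before the start that RefSeq's promoter entry gives for each gene (build GRCr8) were searched for the p53 response element, known as paired copies of a ten-base palindrome, with 0 to 13 bases between them and at most 1 mismatch in 20 positions. The search was set up after sequences of these genes had been looked at. For Mdm2, Gadd45b and Sesn1 the 250 bases lay wholly past the start of the annotated gene. The bases before those genes were therefore not searched. Promoter entries were found for 9 of the 9 genes, and Cdkn1a, Ccng1 and Gadd45a held such a pair, against 0.801% of all 33469 promoters of the same length. Their sequences are shown because these genes carry the contrast described below, Cdkn1a and Gadd45a being higher after sevoflurane and Ccng1 not. They run 5′ to 3′ on the strand of the gene up to the base before the gene's start, and capitals mark the matched decamers. They lie at chr20:7150682-7150819 (plus strand) for Cdkn1a, chr10:25684877-25685126 (minus strand) for Ccng1 and chr4:97486800-97487049 (minus strand) for Gadd45a.
Cdkn1a: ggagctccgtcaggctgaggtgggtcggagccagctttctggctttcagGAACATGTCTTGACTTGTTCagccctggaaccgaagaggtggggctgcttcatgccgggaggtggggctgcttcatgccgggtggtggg
Ccng1: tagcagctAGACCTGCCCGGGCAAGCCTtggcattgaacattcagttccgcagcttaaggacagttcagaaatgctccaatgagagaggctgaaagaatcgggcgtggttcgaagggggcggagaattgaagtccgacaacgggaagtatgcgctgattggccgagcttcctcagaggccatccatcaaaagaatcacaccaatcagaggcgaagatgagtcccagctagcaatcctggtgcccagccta
Gadd45a: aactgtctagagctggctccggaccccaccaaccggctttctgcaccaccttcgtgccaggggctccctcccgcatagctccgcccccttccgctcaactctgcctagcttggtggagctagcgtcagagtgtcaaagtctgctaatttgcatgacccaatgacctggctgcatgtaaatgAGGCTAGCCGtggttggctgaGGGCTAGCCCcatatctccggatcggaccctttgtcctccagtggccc

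The pair of Cdkn1a, GAACATGTCT followed directly by TGACTTGTTC, lay at positions -89 to -70 from the start of the annotated gene (the promoter entry itself is set on a start 112 bases inside the gene). That of Ccng1, AGACCTGCCC and GGGCAAGCCT, lay at -242 to -223. That of Gadd45a, AGGCTAGCCG and GGGCTAGCCC, was split by 11 bases and lay at -69 to -39. With 2 mismatches allowed, Sesn1 also held a pair, but so did 8.17% of all promoters. That pair of Sesn1 lay inside the annotated gene, at positions 71616 to 71638 from its start. Mdm2, Gadd45b, Gadd45g, Plk2 and Sesn2 held no such pair in this window, which says nothing of sites elsewhere, and a match is no proof of binding. For Mdm2 and Gadd45b the window did not reach the bases before the annotated gene.

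Plk2 carried another motif, the cAMP response element TGACGTCA, which the activity-regulated factor CREB binds and which 1.59% of promoters hold. It is shown in capitals in the 250 bases before the start of Plk2 at chr2:43702286-43702535 (plus strand), where it lies at -66 to -59.
Plk2: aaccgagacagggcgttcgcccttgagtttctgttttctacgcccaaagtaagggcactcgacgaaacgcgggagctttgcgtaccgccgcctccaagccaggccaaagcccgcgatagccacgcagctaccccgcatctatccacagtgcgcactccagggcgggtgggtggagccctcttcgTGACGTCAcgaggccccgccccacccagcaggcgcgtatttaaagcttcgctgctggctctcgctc

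On either strand, the glucocorticoid receptor half-site AGAACA was found in 0 of the 9 windows, against 17.5% of all promoters. The E-box CACGTG was found in Gadd45b and Gadd45g (5.59% of promoters), and the TATA box TATAAA in Gadd45g (12.9%). The CCAAT box (letters CCAAT) was found in 7 of the 9 windows (34% of promoters) and the GC box GGGCGG also in 7 (30.5%). These counts include the windows of Mdm2, Gadd45b and Sesn1, which lay past the start of the annotated gene.

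**Figure D1:**
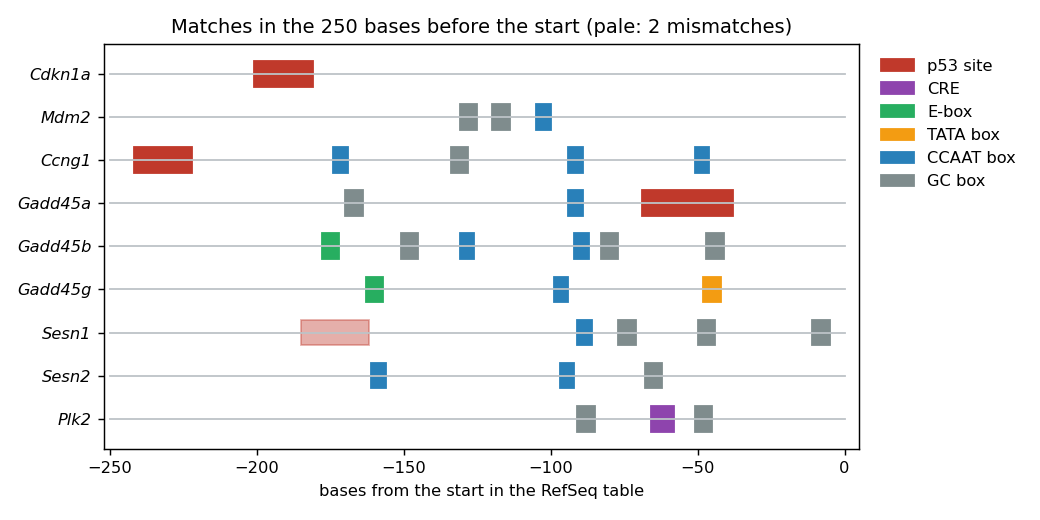
Motif matches in the 250 bases before the start that the promoter table gives for each of the 9 genes. They are drawn by distance from that start in bases, with 1 row per gene and 1 symbol per motif. For Mdm2, Gadd45b and Sesn1 these bases lie past the start of the annotated gene. Cdkn1a, Ccng1 and Gadd45a hold a p53 pair with at most 1 mismatch and Sesn1 one with 2, while Plk2 holds the cAMP response element.

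Cdkn1a, the gene of p21, was the member with the largest difference. Its log2 expression was 6.45, 6.79 and 6.70 in sevoflurane replicates 1, 2 and 3, against 5.83, 6.08 and 5.95 in control replicates 1, 2 and 3. The groups did not overlap, and the gap between the lowest sevoflurane and the highest control value was 0.37. The means were 6.65 ± 0.18 in the sevoflurane group and 5.96 ± 0.13 in the control group (SD, n = 3 each), a log2 fold change of 0.69 (SE 0.13, 95% interval 0.40 to 0.99) or 1.62-fold (95% interval 1.32 to 1.99). Limma gave an unadjusted p of 0.0006 and a p of 1 after Benjamini-Hochberg adjustment over all 68842 probe sets, and the exact permutation p was 0.1, the smallest that 3 against 3 arrays allow. Among the 22093 genes, Cdkn1a ranked 17 by unadjusted p and 35 by log2 fold change. When each array in turn was left out, its log2 fold change stayed between 0.62 and 0.79. In bulk tissue a higher share of cells that express a gene and more RNA per cell cannot be told apart, and this holds for every gene below.

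**Figure D2:**
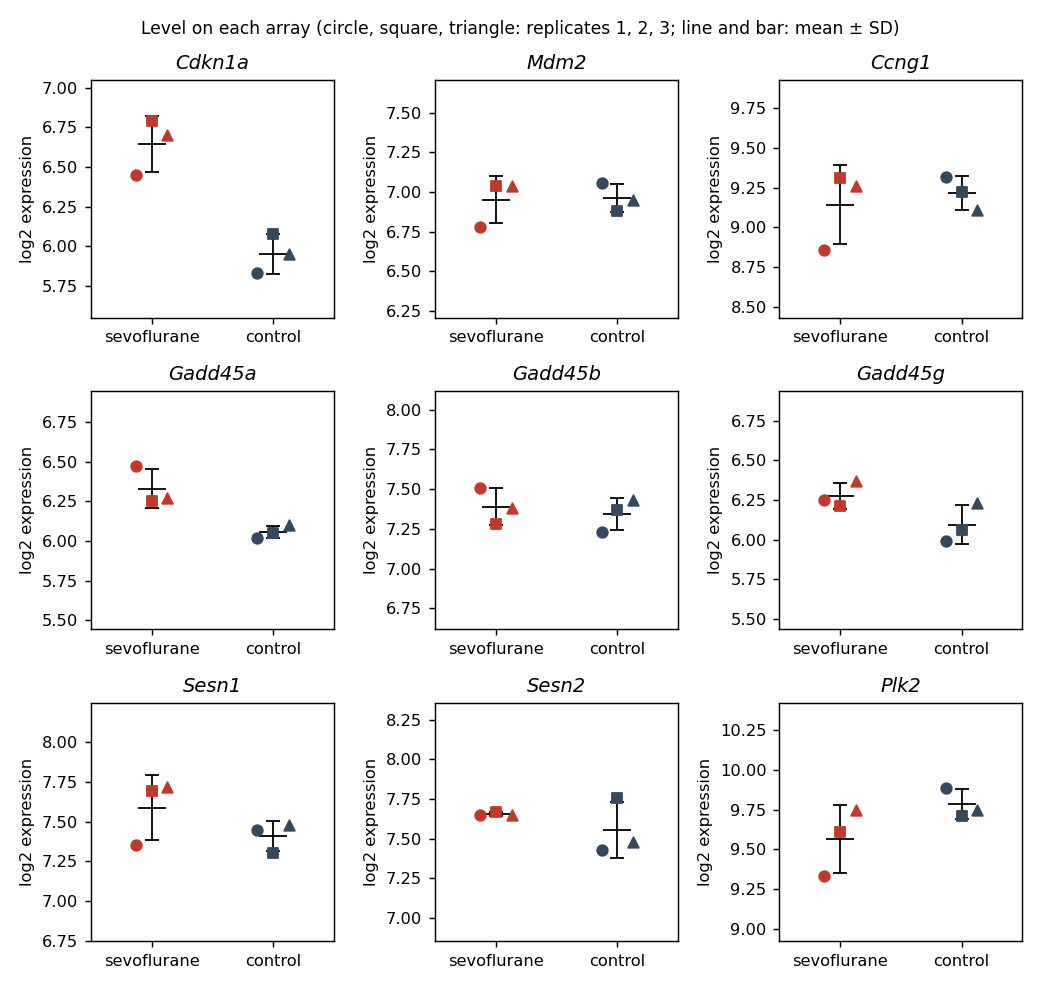
Log2 expression of the 9 genes on each of the 6 arrays, with sevoflurane arrays on the left of each panel and control arrays on the right, points for single arrays and bars for group means. The groups are separate for Cdkn1a and Gadd45a and overlap for the other 7 genes.

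The feedback genes of p53 showed no such difference. Mdm2, the ubiquitin ligase that marks p53 for degradation, had log2 values of 6.78, 7.04 and 7.04 in sevoflurane replicates 1, 2 and 3, against 7.06, 6.88 and 6.95 in control replicates 1, 2 and 3. The groups overlapped, and the log2 fold change was -0.01 (SE 0.12, 95% interval -0.28 to 0.27, limma p = 0.947, exact permutation p = 0.8). Ccng1, the gene of cyclin G1, which recruits a phosphatase to Mdm2, was at 8.86, 9.31 and 9.26 in sevoflurane replicates 1, 2 and 3, against 9.32, 9.22 and 9.11 in control replicates 1, 2 and 3. Its log2 fold change was -0.08 (SE 0.145, 95% interval -0.41 to 0.26, limma p = 0.613, exact permutation p = 0.8). Sevoflurane replicate 1 was the lowest array for both genes, and without it the log2 fold changes were 0.08 for Mdm2 and 0.07 for Ccng1. The upper bounds of the 2 intervals lie below the lower bound of 0.40 for Cdkn1a, although the difference between the genes was not tested.

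The 3 Gadd45 genes encode closely related small nuclear proteins. Gadd45a, the member of the family that p53 is best known to induce, had log2 values of 6.47, 6.25 and 6.27 in sevoflurane replicates 1, 2 and 3, against 6.02, 6.05 and 6.10 in control replicates 1, 2 and 3. The groups were separate by 0.15, with sevoflurane replicate 1 the highest. The means were 6.33 ± 0.12 in the sevoflurane group and 6.06 ± 0.04 in the control group (SD, n = 3 each), and the log2 fold change was 0.27 (SE 0.11, 95% interval 0.02 to 0.52), or 1.21-fold. Limma gave an unadjusted p of 0.0385 and an adjusted p of 1, with an exact permutation p of 0.1. This call was narrow: the unadjusted limma p was above the threshold when sevoflurane replicate 1, sevoflurane replicate 2 or any 1 of the control replicates was left out, with p between 0.0478 and 0.104 over the 6 arrays left out and log2 fold changes between 0.20 and 0.31.

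Gadd45g, which in rodents is linked to cytokine signaling and development, was at 6.25, 6.21 and 6.37 in sevoflurane replicates 1, 2 and 3, against 5.99, 6.06 and 6.23 in control replicates 1, 2 and 3. The groups overlapped by 0.02, and the log2 fold change of 0.19 (SE 0.114, 95% interval -0.07 to 0.45) had an unadjusted limma p of 0.139. Gadd45b, which neuronal activity induces in the mouse hippocampus and which promotes DNA demethylation there, was at 7.51, 7.28 and 7.38 in sevoflurane replicates 1, 2 and 3, against 7.23, 7.37 and 7.43 in control replicates 1, 2 and 3. Its groups overlapped, with a log2 fold change of 0.04 (SE 0.115, 95% interval -0.22 to 0.31, limma p = 0.716, exact permutation p = 0.7).

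Plk2, a polo-like kinase that neuronal activity induces and that weakens overactive synapses, was the member with the most negative difference. Its log2 values were 9.33, 9.61 and 9.75 in sevoflurane replicates 1, 2 and 3, against 9.89, 9.71 and 9.75 in control replicates 1, 2 and 3. The groups overlapped by 0.04, and the log2 fold change was -0.22 (SE 0.134, 95% interval -0.53 to 0.08) with an unadjusted limma p of 0.135. Sevoflurane replicate 1 was the lowest array, and without it the log2 fold change was -0.11, within a range of -0.31 to -0.11 over the arrays left out.

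The sestrins sense amino acids and bind the GATOR complex that controls mTORC1. Sesn1 was at 7.35, 7.69 and 7.72 in sevoflurane replicates 1, 2 and 3, against 7.45, 7.30 and 7.48 in control replicates 1, 2 and 3, so that sevoflurane replicates 2 and 3 lay above and replicate 1 among the control arrays. The log2 fold change was 0.18 (SE 0.133, 95% interval -0.13 to 0.48, limma p = 0.217, exact permutation p = 0.3). Without sevoflurane replicate 1 it was 0.30, with an unadjusted limma p of 0.0189. Sesn2 was at 7.65, 7.67 and 7.65 in sevoflurane replicates 1, 2 and 3, against 7.43, 7.76 and 7.48 in control replicates 1, 2 and 3, with a log2 fold change of 0.10 (SE 0.121, 95% interval -0.18 to 0.38, limma p = 0.427, exact permutation p = 0.4). Its 3 sevoflurane values nearly coincided and lay inside the range of the control values, and the log2 fold change was 0.04 without control replicate 1, 0.06 without control replicate 3 and 0.20 without control replicate 2.

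**Figure D3:**
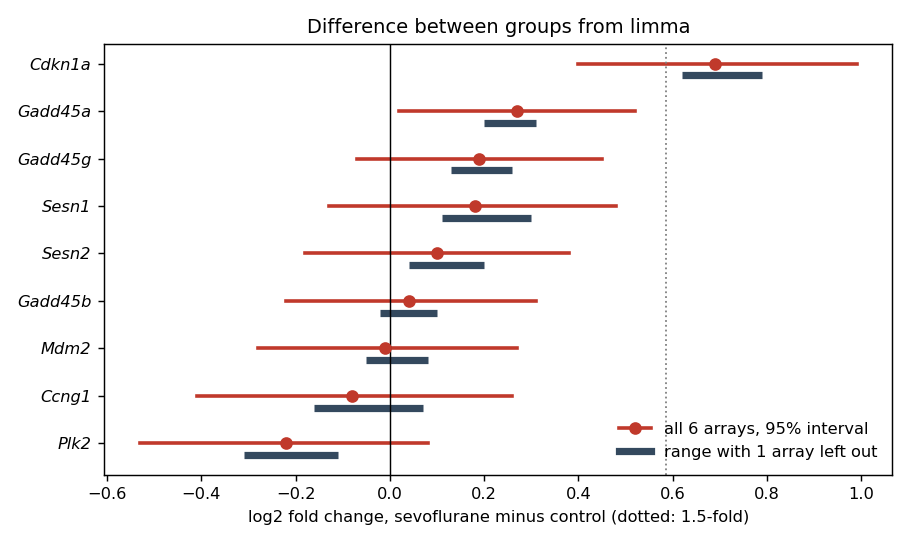
Log2 fold change, sevoflurane minus control, of the 9 genes with 95% intervals from limma. The interval of Cdkn1a runs from 0.40 to 0.99 and that of Gadd45a from 0.02 to 0.52, and the other 7 intervals include 0.

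Over the 9 genes, 6 log2 fold changes were positive and 3 negative, with a median of 0.10 against 0.02 over all genes. At an unadjusted limma p under 0.05, 2 of the 9 were higher after sevoflurane (Cdkn1a and Gadd45a), against 1.1% of all genes, and 0 were lower, against 0.222%. Over all probe sets and both directions 1.61% passed. For the same 2 genes the lowest sevoflurane array lay above the highest control array, as for 4.93% of all genes, and for 0 members was it the other way round, against 1.34%. With a fold change over 1.5, a limit that the study's methods set for long noncoding RNAs and that was applied to genes here, Cdkn1a alone remained, against 0.167% of all genes. After adjustment 0 of the 9 and 0 of all probe sets passed, with a smallest adjusted p of 0.184 over the whole array. With 9 genes chosen for their known relation, these shares describe the set and were not tested.

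The genes whose profile over the 6 arrays lay nearest to that of Cdkn1a were looked up among 11046 genes with a mean above the median of all genes. Nearness was the root mean square difference between log2 values, each gene centred on its own mean. The nearest were Pnpla2, the adipose triglyceride lipase, at 0.08, Mt2A, a metal-binding metallothionein, at 0.09, and Etnppl, an astrocyte enzyme of phosphoethanolamine breakdown, at 0.10, against a median of 0.368 over the compared genes. Their log2 fold changes were 0.69, 0.80 and 0.62. For Gadd45a the nearest were Fam43a at 0.038, Cth, the cysteine-making cystathionine gamma-lyase, at 0.038, and Cisd3, a mitochondrial iron-sulfur protein, at 0.041, against a median of 0.186. The pair differed in which sevoflurane array stood out: sevoflurane replicate 1 was the lowest of its group for Cdkn1a, Pnpla2, Mt2A and Etnppl and the highest for Gadd45a, Fam43a, Cth and Cisd3. Genes near a gene with separate groups share that separation, and the order of the arrays within a group, by construction, so neither is a further finding.

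**Figure D4:**
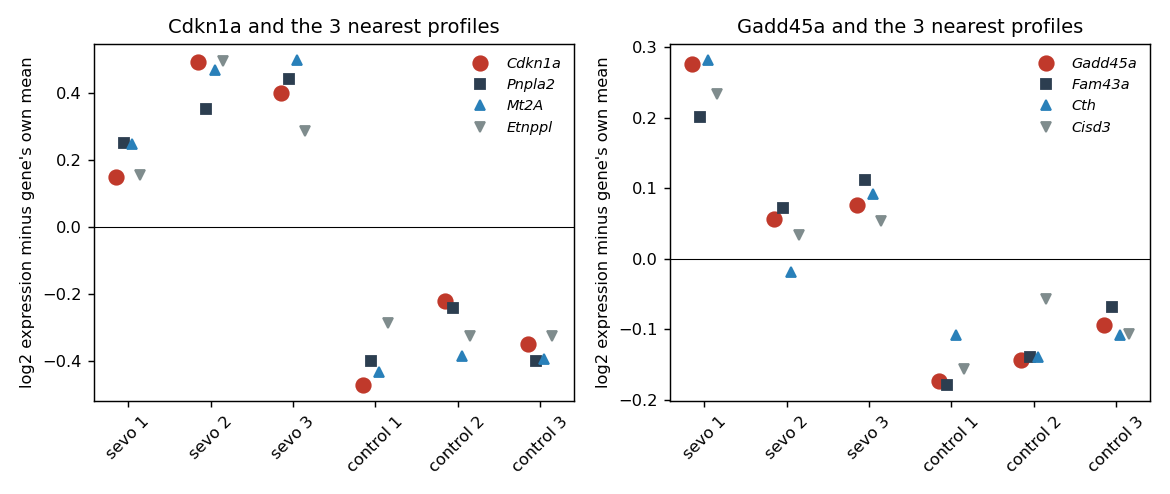
Log2 expression minus each gene's own mean on the 6 arrays (sevoflurane arrays left, control arrays right) for Cdkn1a and Gadd45a, each with its 3 nearest genes. Sevoflurane replicate 1 is the lowest sevoflurane array in the Cdkn1a panel and the highest in the Gadd45a panel.

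The rest of the pathway was read from lists of genes. The lists were p53 regulators, other p53 targets, CDK inhibitors, G1 and S phase cyclins and kinases, proliferation genes, paralogs, GADD45 partners, sestrin partners, DNA repair and senescence-associated genes. Of their 221 measured genes, 0 passed an unadjusted limma p of 0.05 in either direction, against 1.1% higher and 0.222% lower over all genes. The log2 fold changes of the 221 lay between -0.22 and 0.32, with a median of 0.02, the same as that of all genes. The groups were separate and higher after sevoflurane for 7 of the 221 and lower for 2, against 4.93% and 1.34% of all genes. Other settings call more genes over the whole array, and their counts are read against that. Without sevoflurane replicate 1, 6 of the 221 were higher and 0 lower, against 2.77% and 1.84% of all genes. By the methods' analysis of variance 4 were higher and 2 lower, against 2.49% and 0.647%, and with array weights 12 were higher and 1 lower, against 5.65% and 4.46%. The higher counts thus stood near the share over all genes in each of these alternative settings.

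Among 19 regulators of p53, the smallest p belonged to Hipk2, a kinase that activates p53, with 9.84, 9.77 and 9.90 in sevoflurane replicates 1, 2 and 3, against 9.60, 9.68 and 9.67 in control replicates 1, 2 and 3. Its groups were separate, with a log2 fold change of 0.18 and an unadjusted limma p of 0.108. By the methods' analysis of variance its unadjusted p was 0.0134. Among 40 other targets the smallest p belonged to Foxo3, a stress-responsive transcription factor (0.19), and to Cd82, a membrane tetraspanin (0.17). The repressor Bcl6 had a log2 fold change of 0.28 over all arrays and 0.50 without sevoflurane replicate 1, where Polk (0.29), a translesion polymerase, and Pcna (0.29), the replication clamp that p21 and Gadd45 proteins bind, also passed the unadjusted threshold. Foxo3 and Bcl6 are also on the list of FoxO factors and targets read below, and Bcl6 on that of glucocorticoid-responsive genes. The other 3 of the 6 listed genes that passed without sevoflurane replicate 1 were the mitotic kinase Aurkb (0.51, against 0.32 over all arrays), the retinoblastoma relative Rbl2 (0.27) and the lysosomal beta-galactosidase Glb1 (0.29). By the methods' analysis of variance Hipk2, Pmaip1 (0.12), Nprl3 (0.06) and Parp1 passed as higher. Dusp5 (-0.08) and Ercc4 (-0.06) passed there as lower. The nearest relatives of Cdkn1a, the CDK inhibitors Cdkn1b (p27) and Cdkn1c (p57), had log2 fold changes of 0.15 and 0.11. In the repair list Parp1, which senses strand breaks, had 0.10.

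Lists of other inputs known to act on these genes were read in the same way. They were chosen with earlier results of these data known, so their counts describe these arrays and are no independent evidence. Over all genes, 1.1% were higher and 0.222% lower at the unadjusted limma threshold. Of 24 FoxO factors and targets 2 were higher and 0 lower at the unadjusted limma threshold, namely Pdk4, which shuts pyruvate out of oxidation (log2 fold change 1.32), and the transcription factor Klf9 (0.37). Both are also on the list of 32 glucocorticoid-responsive genes, of which 20 were higher and 0 lower, with a median log2 fold change of 0.37. Its smallest p-values belonged to the glycerol phosphate dehydrogenase Gpd1 (1.37), the connexin Gjb6 (0.76), Mt2A (0.80) and the sulfotransferase Sult1a1 (0.95). The summed linear level of this list was 15698, 18090 and 18959 in sevoflurane replicates 1, 2 and 3, against 12828, 12924 and 12790 in control replicates 1, 2 and 3. Of 35 genes induced by neuronal activity, 0 were higher and 3 lower: Nr4a3 (-0.30), Arc (-0.42) and Egr1 (-0.40). By the methods' analysis of variance 1 was higher (Jun, 0.11) and 1 lower (Nr4a3), and without sevoflurane replicate 1, a setting that calls more genes throughout, 1 was higher and 5 were lower. The part of either list in the difference of Cdkn1a, Gadd45a or Plk2 was not tested.

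**Figure D5:**
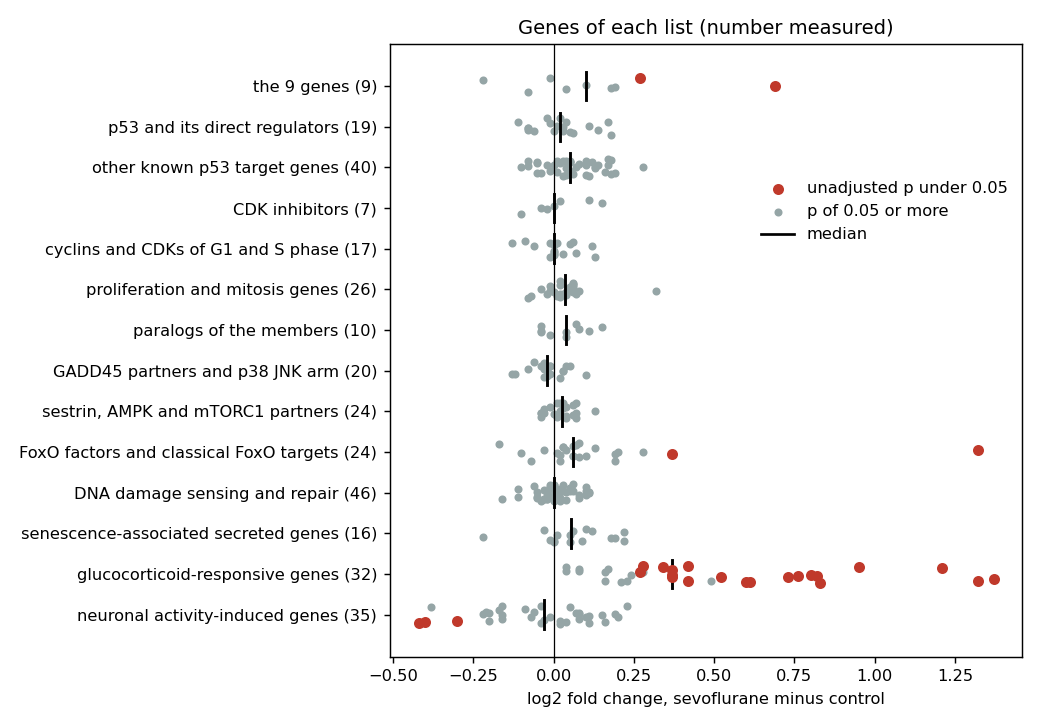
Log2 fold change, sevoflurane minus control, of every measured gene of each list, 1 point per gene, with the number of genes in brackets, red for an unadjusted limma p under 0.05 and a bar for the median. The p53, cell cycle, partner, repair and senescence lists lie around 0 with 0 red points, the 32 glucocorticoid-responsive genes have 20 and the 9 genes have 2.

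Markers of other tissue and cell types moved with the treatment in part. Of 23 thalamus and habenula markers 7 were higher and 0 lower at the unadjusted limma threshold, with summed linear levels of 5005, 6208 and 4299 in sevoflurane replicates 1, 2 and 3, against 4031 to 4283 in the control group. Cdkn1a was at 6.45, 6.79 and 6.70 in sevoflurane replicates 1, 2 and 3, against 5.83 to 6.08 in the control group. Of 15 microglia markers 1 was higher, and their sum was 2810, 2924 and 4901 in sevoflurane replicates 1, 2 and 3, against 2795 to 2962 in the control group. Of 14 astrocyte markers 3 were higher and 0 lower. Among the 3 is Gjb6, which is also on the list of glucocorticoid-responsive genes. The astrocyte sums were 11146, 11716 and 11599 in sevoflurane replicates 1, 2 and 3, against 10371 to 10989 in the control group. Of 18 hippocampal neuron markers 0 were higher or lower, with sums of 5083 to 6534 in the sevoflurane group and 5598 to 6729 in the control group. Of 16 oligodendrocyte markers 3 were higher and 1 lower, of 18 endothelial markers 2 and 2, of 14 pericyte markers 0 and 0, of 12 choroid plexus markers 1 and 0, and of 8 red blood cell genes 0 and 2. Without sevoflurane replicate 1 the counts higher and lower were 5 and 0 for microglia, 6 and 1 for astrocyte and 5 and 1 for oligodendrocyte markers. They were 3 and 4 for endothelial markers, 0 and 0 for choroid plexus markers and 0 and 1 for red blood cell genes. In that setting 2.77% of all genes were higher and 1.84% lower, in place of 1.1% and 0.222%. Except for 1 choroid plexus gene, every marker was above background on at least 1 array. The part of these cell types in the levels of the 9 genes was not tested.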

How the data were processed

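The values used are the log2 levels that the authors deposited, already normalized, 1 for every probe set on an array. The processing notes of the submitters list RMA, MAS5 and Affymetrix Expression Console 1.4.1, with no word on which method made them. A normalization shared by all arrays can hide a shift common to most transcripts. From these values, 1738 of 70580 probe sets were left out as controls and 68842 were tested with no filter on level. Of these, 23446 named a single gene, giving 22093 genes.

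Groups from the submitters' labels were compared with limma 3.58.1 (lmFit, eBayes, two-sided) in R 4.3.3 over all tested probe sets, with Benjamini-Hochberg adjustment. Single members were also tested by an exact permutation test. The script was tested on simulated data. The 22 gene lists held 460 genes, of which 437 were measured. The members and lists were chosen with earlier results of these data known. Named are all members, the up to 4 genes of smallest p per list (3 per marker list, given as counts), and the 3 most similar profiles for members with separate groups; genes that passed only in an alternative setting were named after their values were seen. Promoters came from RefSeq. Alternatives were quantile normalization, median centring, another variance prior, array weights, a filter on dim probe sets, the methods' analysis of variance, a replicate block, the mean of probe sets, and each array left out; the lists were recomputed with 3 of these, chosen after seeing the data. Tables and figures used pandas 2.3.3 and matplotlib 3.10.9 in Python 3.11.15.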

Additional observations from a re-analysis of the deposited data

How the results depend on the processing

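Over 14 alternative settings the log2 fold change of Cdkn1a stayed between 0.62 and 0.80 with an unadjusted limma or methods' p under 0.05 in all 14. Its adjusted p was under the threshold in array weights alone (0.0272), a setting that gave sevoflurane replicate 1 a weight of 0.1743. Gadd45a passed in 8 of 14. The mean of probe sets and the filter on dim probe sets are among the 14, here and in the counts below. They could barely alter a member, since each had 1 probe set, well above background. The count of members higher was 1 with the replicate block, where limma gave Gadd45a an unadjusted p of 0.111, and 1 to 2 when each array was left out. Cdkn1a passed in each of these, alone without sevoflurane replicate 2 or any control replicate, and with Sesn1 without sevoflurane replicate 1. Of 126 values over 9 genes, 110 kept their direction and side of the threshold, 6 no longer passed, 2 newly passed (Sesn1 with array weights, 0.24, and without sevoflurane replicate 1, 0.30) and 8 turned sign. With array weights Mdm2 had 0.08, Ccng1 0.12 and Gadd45b -0.08. When each array was left out, Mdm2 ranged from -0.05 to 0.08, Ccng1 from -0.16 to 0.07 and Gadd45b from -0.02 to 0.10. The cause was not tested. Over the whole array 1108 probe sets passed an unadjusted p of 0.05, against 490 with the replicate block and 9566 with array weights, the lowest and highest of the alternatives. With array weights 16 of 23 thalamus and habenula markers were higher and 11 of 35 activity-induced genes lower, in a setting where 5.65% and 4.46% of all genes were. By the analysis of variance these counts were 5 and 1, and over all arrays by limma 7 and 3. Deviations of same-numbered arrays from their group means correlated at -0.585, -0.288 and 0.026. Deviations within a group depend on each other and on array quality, so these values cannot show whether the replicate numbers pair the samples. Apart from Gadd45a, the block changed no call of a member.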
